A study of Mus musculus with 3 samples.

Results

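The microarray slides used for the adult murine retinal pigment epithelium (RPE) carry a class of control spots whose identifiers start with mCP, and these spots return to the same few genes many times on each slide. All spots with such an identifier were taken, 392 of the 38880 spots of an array, and they were grouped by the accession in the name column. They fell into 10 genes, of which 8 are described one by one, with 20 spots each. These were Actb, B2m, Gapdh, Hprt, Rpl13a, Tbp, Ywhaz and BC031849. The last is an accession that matched no gene symbol and is used as it stands.

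There was 1 group of 3 samples, RPE sheets from C57BL/6 mice aged 2.5–3 months with no treatment named, and there was no control group. The series describes the samples as independent biological replicates. The sources used here give no number of mice per sample. Total RNA was amplified, biotin-labelled and then hybridised to slides of the MEEBO set (mouse exonic evidence-based oligonucleotides), which were read in 1 colour.

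The 7 genes with a symbol are in common use as expression references, because nearly every cell type transcribes them. They come from unrelated processes. Rpl13a encodes a protein of the large ribosomal subunit, and Tbp the TATA-binding protein that helps to start transcription. Gapdh encodes a glycolytic enzyme and Hprt an enzyme of purine salvage. Actb encodes cytoplasmic beta-actin, Ywhaz a 14-3-3 adaptor protein, and B2m the light chain of the class I histocompatibility molecules. A reference gene is useful where it is steady, and a spot printed many times separates the scatter of the slide from the difference between samples. The sources used here do not say whether all spots of an accession carry 1 oligonucleotide, and they give no oligonucleotide sequence, so none is shown. Cross-hybridisation with pseudogenes or related genes, of which Actb, Gapdh and Rpl13a have many, could therefore not be assessed.

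The mean intensity of the mouse probes, as median foreground minus median local background, was 831 on replicate 1, 476 on replicate 2 and 316 on replicate 3. The 94 mCN spots served as negative controls, and 95% of them lay below 133, 72.4 and 53.9. Scanning of replicate 3 took place in a later session than for the other two, its image is marked "redip" in the file header, and with 1 array in it this session cannot be told apart from the sample. Of the RPE markers, 7 of 7 were called above the negative controls. Among markers of other cells, 1 of 6 was called for rods (Gnat1), 1 of 3 for stroma and fibroblasts (Dcn) and 1 of 1 for red blood cells (Hba-a1).

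Of the 10 mCP genes, 9 were called above the negative control threshold, and Tbp was not. The threshold was the 95th percentile of the negative controls of the same array, and a gene was called at a limma adjusted p under 0.05, with the adjustment over all mouse probes and mCP genes. Among the mouse probes, 25.5% were called by the same rule. The mCP share cannot be read directly against that figure, because each mCP gene is a mean over its repeated spots and a mouse probe is 1 spot. Spots above the threshold numbered 371, 371 and 367 of 392 on replicates 1, 2 and 3. The remainder were the 20 Tbp spots of each array, 1, 1 and 3 spots of BC031849, and 2 spots of Ywhaz on replicate 3. The level of a gene is given as its mean log2 intensity relative to this threshold, with the SD of the 3 arrays after ±. Levels of different genes are not ranked, because probes hybridise with unequal strength.

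Of the genes of translation and transcription, 1 was called and 1 was not. Rpl13a read 3744, 1488 and 1060 as the median of its 20 spots, with a level of 3.68 ± 0.08 (limma adjusted p = 1.26e-06). Its spots ran from 1206 to 4843 on replicate 1 and from 333 to 1323 on replicate 3.

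Tbp stood apart as the only mCP gene that was not called. Its spot medians were 33, 19.5 and 18.5, and its highest spot on the 3 arrays read 55, 28 and 27. No Tbp spot passed the threshold on any array, and its level was -0.82 ± 0.03. The scanner software had marked 2, 4 and 8 of its spots as not found, and no spot of any other mCP gene carried such a flag. The transcript was not detectable with these spots, which does not show that it was absent.

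The metabolic enzymes Gapdh and Hprt were both called. Gapdh had spot medians of 32736, 20618 and 10928 and a level of 7.18 ± 0.11 (limma adjusted p = 7.26e-07). Hprt read 11163, 4212 and 2398, with a level of 5.12 ± 0.30 (limma adjusted p = 2.24e-06). All 20 spots of each were above the threshold on each array.

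Actb, of the cytoskeleton, had spot medians of 5072, 3664 and 2613 and a level of 4.77 ± 0.44 (limma adjusted p = 7.70e-06). B2m, of antigen presentation, read 29716, 12420 and 5358, with a level of 6.54 ± 0.49 (limma adjusted p = 3.68e-06). Before normalisation, its spot ranges overlapped only for replicates 1 and 2, where the lowest spot of replicate 1 (17738) lay below the highest of replicate 2 (18522). The arrays themselves differed in brightness, so these separate ranges are not read as a difference between samples. The adaptor Ywhaz had medians of 1280, 420 and 126. Its level was 1.62 ± 0.67 (limma adjusted p = 0.00341), the largest SD over the arrays in the class, and it was 2.21, 1.77 and 0.89 on replicates 1, 2 and 3. BC031849 had medians of 584, 214 and 96 and a level of 0.96 ± 0.37 (limma adjusted p = 0.00343). Against a stricter threshold, the 99th percentile, BC031849 was not called (level 0.13). Its adjusted p ranged from 9.03e-04 to 0.0358 when 1 array was left out.

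On the scale of the deposited value table, to which the study applied a filter at an intensity of 500, the spot medians times the factor of each array gave the same division. The mean over the 3 arrays was above 500 for 9 of the 10 genes, and for 24.5% of the mouse probes in that table. Again these shares cannot be read directly against each other, because the mCP values are medians over repeated spots and a mouse probe is 1 spot. Tbp reached 71.6, 71.0 and 93.4. BC031849 was at 1267 and 777 on replicates 1 and 2 and at 485 on replicate 3.

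Repeated spots of a gene differed widely within an array. On the normalised log2 scale, the SD over the spots of 1 array had a median of 0.42 over the 10 genes, and among the genes described it ran from 0.11 for Tbp to 0.61 for BC031849. On the linear scale, the coefficient of variation of BC031849 was 47.4%, 46.0% and 53.9% on replicates 1, 2 and 3. For Gapdh it was 23.9%, 22.2% and 24.8%, and for Rpl13a 23.4%, 23.3% and 23.8%. The brightest BC031849 spot of replicate 1 was 10.5 times its dimmest, and for B2m this ratio was 2.21. The small log2 SD of Tbp comes with intensities near the background, where the offset of 50 used in the background correction compresses differences, and its coefficient of variation was 24.0–29.9%.

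The scatter was nearly the same on all 3 slides. A spot that was dim for its gene on 1 array was dim on the others, with correlations of spot values between arrays of 0.90–0.99 for the 9 called genes and 0.38–0.54 for Tbp. These correlations are across spots that share their place on the slide, and they are given as a description. The dimmest spot lay at the same position on all 3 arrays for 7 of the 10 genes. For Rpl13a it was a spot in block 26 that read 1206, 613 and 333. For Ywhaz it was a spot in block 2 that read 246, 97 and 33, and for Actb a spot in block 3 that read 2208, 1868 and 1783. When each spot's own mean and each array's mean had been removed, the residual SD was 0.07–0.16 on the log2 scale, with a median of 0.10. For Hprt the part of the SD that belonged to the spot was 0.51 and the residual 0.07.

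Spots were then grouped by their place in the block. Over the 180 spots at scattered positions of the 9 called genes, those in row 1 and columns 4 to 9 deviated from the median of their gene by -0.39, -0.32 and -0.33 (median of 56 spots, log2, replicates 1, 2 and 3). The 101 row 1 spots of columns 10 to 27 deviated by 0.08, 0.07 and 0.07. The 23 spots of row 2 deviated by 0.21, 0.20 and 0.25. Taken gene by gene, the spots of row 1 and columns 4 to 9 were below the remaining spots in 9 of 9 genes, from -0.09 for Hprt to -1.08 for Ywhaz, which had 4 such spots. For Hprt this difference is small beside the SD of 0.51 between its spots. These columns were chosen after the values were seen, so the differences carry no test. Every mouse probe is present as 1 spot, and its value has no such repeat within the slide.

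Between the samples, the 10 genes did not keep one ratio to each other. Among 9528 mouse probes above the threshold on all arrays and unsaturated, the intensity on replicate 1 was 3.12 times that on replicate 3 as a median, and 90% of the probes lay between 1.51 and 5.99 times. The ratio of spot medians for Ywhaz was 10.1, a value above that of 99.7% of these mouse probes. It was 5.55 for B2m, 6.08 for BC031849 and 4.66 for Hprt, also on the high side. Gapdh at 3.00 and Rpl13a at 3.53 lay near the middle. Actb at 1.94 lay below the median, with 11.4% of mouse probes lower.

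For some pairs of genes these ratios differed by more than the repeated spots did. For each of the 20 Ywhaz spots, replicate 1 read between 7.06 and 12.9 times replicate 3, and for each of the 20 Actb spots between 1.24 and 2.10 times. The ratios of B2m spots ran from 4.63 to 6.28 and those of Gapdh spots from 2.56 to 3.20, so these 4 genes did not overlap. Other genes did. The spots of Hprt, at 4.24–5.56, overlapped those of B2m. The spots of BC031849, at 2.74–7.97, overlapped those of Gapdh, Rpl13a, B2m, Hprt and Ywhaz. Spots of 1 array share their RNA, so this compares 3 samples and is not a test between conditions. Fewer cells of a type and less RNA per cell cannot be told apart in these samples, and a part of the later scan of replicate 3 was not tested.

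After normalisation, the SD over the arrays of a gene's mean log2 intensity was 0.26 as a median over the 10 genes and reached 0.70 for Ywhaz. The median was 0.14 without replicate 1 and 0.88 with no normalisation between arrays. The SD was 0.52 for B2m, 0.39 for Actb, 0.14 for Rpl13a and 0.11 for Gapdh. Beside these, mouse probes within 0.25 of the same mean log2 intensity had a median SD over the arrays of 0.26 for Ywhaz, 0.17 for B2m and 0.20 for Actb. Of such probes, 94.7% had a smaller SD than Ywhaz, 99.1% a smaller one than B2m and 88.2% a smaller one than Actb. This share was 83.1% for Hprt and 77.7% for BC031849. It was 29.5% for Tbp, 26.4% for Gapdh and 24.5% for Rpl13a. These mouse values come from 1 spot per array and the mCP values from 20, so SDs of mCP genes below those of mouse probes are not read as steadiness.

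These SDs depend in part on the normalisation. With the quantile normalisation fitted on mouse probes and negative controls alone, the SD was 0.55 for B2m and 0.39 for Actb. With the factors of the deposited value table it was 0.63 for B2m, 0.21 for Actb and 0.17 for Gapdh. Under these factors Rpl13a was at 0.33, against 0.14.

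The direction differed between genes as well. On the normalised log2 scale, the mCP spots of Ywhaz were highest on replicate 1 and lowest on replicate 3, with deviations from their mean of 0.65, 0.10 and -0.75. B2m (0.48, 0.07 and -0.55), BC031849 (0.42, -0.03 and -0.39) and Hprt (0.37, -0.08 and -0.29) had the same order. Actb ran the other way, at -0.43, 0.11 and 0.33. Replicate 1 stayed above replicate 3 for Ywhaz, B2m, BC031849 and Hprt, and below it for Actb, in both of these other settings. With array medians of the mouse probes set equal, Actb too was higher on replicate 1 than on replicate 3, by 0.63. Without any normalisation between arrays all spot medians were highest on replicate 1, the brightest array.

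The difference between 2 genes on the same array was also followed from array to array. Over the 45 pairs of mCP genes after quantile normalisation, the SD over the arrays of this log2 difference was highest for Actb with Ywhaz, at 1.08. With no normalisation between arrays this pair was at 0.94, and pairs with Tbp went higher, up to 1.21 for Tbp with Ywhaz. For Hprt with Rpl13a the SD was 0.24 after quantile normalisation and 0.22 with none. For Gapdh with Rpl13a they were 0.15 and 0.26, so that this SD depended on the normalisation. By the mean of the SD over the 9 pairs of a gene, Rpl13a (0.28) and Gapdh (0.29) were the lowest of the called genes described, and Ywhaz (0.57) and Actb (0.65) the highest. With no normalisation the means were 0.37 for Rpl13a, 0.37 for BC031849, 0.39 for Gapdh, 0.61 for Ywhaz and 0.52 for Actb. Tbp, below the threshold on every array, had a mean of 0.28 with quantile normalisation and 0.75 without, and these values describe background. The mean of every other gene includes its pair with Tbp. After quantile normalisation that pair was at 0.09 for Gapdh and 0.27 for Hprt. With no normalisation it was at 0.27 for Actb and 1.21 for Ywhaz. The order of Gapdh and Hprt, and that of Actb and Ywhaz with no normalisation, depends on whether this pair is counted. With 3 arrays these SDs rest on few values, and their order was not tested.

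Mouse probes of the same accession give a second reading of 9 of the genes, with 13 probes in all. Of these 7 were called, against 25.5% of all mouse probes. For BC031849 the slide held no mouse probe with this accession. A called mouse probe was found for 7 of the 9 genes, Actb, Gapdh, Hprt, Rpl13a and Ywhaz among them. Over all named genes with a mouse probe this share was 39.8%. None of the 3 mouse probes of Tbp was called at this threshold, nor were its mCP spots. The first of the mouse probes read 248, 87 and 56, above the threshold on each array but with a limma adjusted p of 0.158, the second 177, 88 and 48, and the third 18, 15 and 17. For B2m the calls parted. Its mouse probe read 73, 41 and 31, below the threshold on each array (level -0.44 ± 0.04), while all 20 of its mCP spots were above. Whether these mouse probes were called rests on the threshold. At the 90th percentile of the negative controls the mouse probe of B2m was called (level 0.24, limma adjusted p = 0.0250). The mCP spots of B2m were at 7.23 there, so the readings still lay far apart. Also called were 2 of the 3 mouse probes of Tbp (levels 0.94 and 0.79), while the mCP spots of Tbp were not (level -0.14). The probes of Hprt also disagreed. Of these, 1 of 2 was called, at 461, 161 and 74, and the other read 35, 27 and 7. Without replicate 2 the called Hprt probe lost its call (limma adjusted p = 0.0885).

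How a probe changed from array to array can be compared even where its level cannot. The replicate 1 to replicate 3 ratio of the mouse probe was 1.68 for Actb, beside 1.94 for the mCP spots, and both were under the median of 3.12. For Rpl13a it was 3.25, beside 3.53. In both genes the ratio of the mouse probe lay within the range of the single mCP spots, which was 1.24–2.10 for Actb and 3.22–4.05 for Rpl13a. The mouse probe of Gapdh, at 3.49, lay just above its range of 2.56–3.20.

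For Ywhaz the readings parted further. The mouse probe of Ywhaz read 355, 307 and 215, a ratio of 1.65, whereas none of the 20 mCP spots of this gene had a ratio below 7.06. After normalisation their directions were opposite. Replicate 1 minus replicate 3 was -0.69 for the mouse probe and 1.39 for the mean of the mCP spots on the log2 scale. The called Hprt probe had a ratio of 6.23, above the range of 4.24–5.56 of the mCP spots. The sources used here do not say where in the transcript either kind of probe lies, and the cause of these differences was not tested.

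Other reference genes were mostly called on their mouse probes. Of 30 genes in common use as references, 28 had a mouse probe and 25 had a called one (89.3%), against 39.8% of all named genes with a mouse probe. Without the genes of the mCP class the count was 18 of 19. Genes without a called probe were B2m, Tbp and Gusb, a lysosomal enzyme with a level of 0.35. Among those called, Atp5b, of the mitochondrial ATP synthase, had a level of 8.30. The proline isomerase Ppia was at 6.79 and the glycolytic enzyme Pgk1 at 5.55. Sdha and Polr2a had no mouse probe that matched by accession. Each level is that of the brightest probe of the gene.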

How the data were processed

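The authors deposited 1 scanner export per array (GenePix Pro 4.1.1.4) with foreground and background intensity per spot, not normalised, per the file headers, and a flag per spot, a deposited score written by that software. In the deposited value table, mouse probes alone have a normalized intensity. It equals background-subtracted intensity, with values under 1 set to 1, times 2.17, 3.64 and 5.05 on replicates 1, 2 and 3. 

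The background was corrected by normexp (offset 50) over all spots, with limma 3.58.1 in R 4.3.3, and values were taken to log2 and quantile-normalised over the 35078 mouse probes, 94 negative controls and 392 mCP spots. The values of the mCP spots of an accession were averaged per array. The log2 value minus the threshold (log2 7.15, 7.05 and 7.08) was fitted for mCP genes and mouse probes together (lmFit, eBayes, intercept only, one-sided, Benjamini-Hochberg over all). Accessions were named through GRCm38.p6 annotation. The rule for at most 30 genes names every mCP gene. Of these, 2 are not reported here one by one, and counts and medians over the class include them. Spread within arrays and between arrays is described without tests. The fit and the decomposition of spot scatter were tested on simulated data. Members, lists and tests were chosen with earlier results of these data known. Precision is limited by the number of arrays. The p-values rest on the spread between these 3 samples, with the variance of each gene drawn by eBayes towards that of all fitted features. For Ywhaz the SD over the arrays was 0.67 and the limma standard error 0.26, and for BC031849 they were 0.37 and 0.15. Alternatives were the background correction, the normalisation, the threshold, the summary of spots, flagged spots and each array left out.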

Additional observations from a re-analysis of the deposited data

Results flagged for a closer look

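A further class of control spots, named mCA, has among its spots 2 for each of the 10 accessions, 20 in all, which were used in no comparison. The sources used here do not say what distinguishes the class. Of these, 3 spots were above the negative control threshold on all 3 arrays, which is why they are listed. An Actb spot (mCA000101) read 321, 146 and 141, a mean level of 0.85 above the threshold on the log2 scale. The 2 B2m spots read 165, 192 and 408 (mCA000567, level 1.10) and 132, 205 and 435 (mCA000620, level 1.08). Both were brightest on replicate 3, the dimmest array, while the 20 mCP spots of B2m were each brightest on replicate 1. The cause of this difference was not tested.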

How the results depend on the processing

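The count of 9 called mCP genes held under all alternatives except the 99th percentile as the threshold, with 8 called, the exception being BC031849. Over the alternatives, 119 of 120 levels of single genes kept their direction and call, and 0 reversed. Not all of these are separate checks. Levels are relative to the threshold of the same array, so no normalisation and equal array medians gave identical levels. Leaving out flagged spots could alter the level of Tbp alone. The median between-array SD of 0.26 was 0.88 with no normalization between arrays and 0.79 with array medians of the mouse probes set equal. The median mouse probe lies near the background, so equal medians leave the brightness of the arrays in place. Leaving out 1 array gave 0.14 to 0.32, lowest without replicate 1 (0.14). The within-array SD stayed at 0.42 to 0.45 when 1 array was left out. Genes with a called mouse probe numbered 6 to 9 over the alternatives, and called reference genes 22 to 28. Mouse probes called were 13548 and 6367 with the 90th and 99th percentiles, against 8931. The settings with normalisation fitted without the mCP spots and with the factors of the deposited table were added after seeing the data. No paired analysis was possible because there is 1 group. Background limits what the Tbp spots can show.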
